A study of Mus musculus with 3 samples.

Results

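The set described here is the itaconate-making enzyme gene Acod1 and 8 genes of the tricarboxylic acid (TCA) cycle, Cs, Idh2, Idh3a, Ogdh, Sdha, Sdhb, Fh1 and Mdh2. The 9 genes were taken by name from the 55536 gene entries of the deposited tables. Expression was read from polyadenylated RNA of mouse bone-marrow-derived macrophages, strain C57BL/6J, in 3 libraries that are biological replicates 1, 2 and 3 of 1 group. The cells had received 100 ng/mL of a stimulus for 480 minutes, which the sample descriptions call lipid A, a Toll-like receptor 4 ligand, and the treatment fields call lipoprotein A. The labels give the 3 biosamples the same donor entry and no sex or age. Since no unstimulated cells were among the samples, all values are levels after stimulation and none is a change.

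The TCA cycle oxidises acetyl units in the mitochondrial matrix and feeds electrons to the respiratory chain. Citrate synthase makes citrate, which is turned into isocitrate through cis-aconitate, and isocitrate dehydrogenase, oxoglutarate dehydrogenase, succinyl-CoA ligase, succinate dehydrogenase, fumarase and malate dehydrogenase complete the circle. Acod1 encodes the mitochondrial enzyme that removes a carboxyl group from cis-aconitate and so makes itaconate, a metabolite of activated macrophages that inhibits succinate dehydrogenase. Acod1 is known as a gene induced by inflammatory stimuli, while the cycle enzymes are made in nearly all cells with mitochondria.

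The sequences upstream of the genes are shown first, and whether they bear on the levels of the genes was not tested. RefSeq promoter entries on GRCm38.p6, the assembly also known as mm10, matched 8 of the 9 genes, in 13 windows of the 250 bases before a RefSeq start, 6 of them for Ogdh. The window is given for Acod1, up to the start of its GENCODE gene, and for Cs as a cycle gene of high level. Capitals in Acod1 mark, on either strand, the short kappaB form GGAANTTCC, the long kappaB form (3 bases G, 5 free bases and a pair of C), the IRF core AANNGAAA and the TATA box TATAAA, of which the last lies past the printed bases. Capitals in Cs mark CCAAT and the GC box GGGCGG. The ETS core CCGGAAG and the NRF1 motif, which is the Sdha match GCGCAGGCGC with its base after the first A left free, were searched too. The motifs were chosen after the sequences had been seen.
Acod1, chr14:103046762-103046976, plus strand: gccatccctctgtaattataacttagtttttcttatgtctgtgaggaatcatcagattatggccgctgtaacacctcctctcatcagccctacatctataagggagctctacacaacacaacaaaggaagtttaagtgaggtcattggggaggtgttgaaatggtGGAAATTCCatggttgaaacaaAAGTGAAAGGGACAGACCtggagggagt
Cs, chr10:128337477-128337726, plus strand: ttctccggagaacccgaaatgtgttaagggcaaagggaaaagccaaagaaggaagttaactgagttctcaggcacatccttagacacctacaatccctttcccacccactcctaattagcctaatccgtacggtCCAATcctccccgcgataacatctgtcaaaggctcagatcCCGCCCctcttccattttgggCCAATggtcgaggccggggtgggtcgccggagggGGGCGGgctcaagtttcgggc
Counted back from the RefSeq start, Acod1 held GGAAATTCC at -85 to -77, AAGTGAAA at -63 to -56, GGGACAGACC at -55 to -46 and TATAAA at -28 to -23. The last 35 bases of the Acod1 window, with TATAAA, lie within the GENCODE gene, which starts upstream of the RefSeq start. The last 40 bases of the Sdha window likewise lie within the GENCODE gene. Among the 8 matched genes, GGAANTTCC and TATAAA were found only in the window of Acod1. These letters occur in 0.813% and 12.4% of the 32851 promoter windows of the same length. The IRF core (21.3% of all windows) was found upstream of Acod1, Cs and Ogdh, and the long kappaB form (45.8%) upstream of 6 genes, Ogdh among them. A gene with several windows had more chances of a match than the single windows behind these shares. The Cs matches to these motifs overlap each other and are in lower case, as is a CCAAT match on the other strand in Acod1. Sdha held the NRF1 motif at 3 places, 1 of them within the GENCODE gene. That motif is in 3.74% of all windows and in none of the other matched genes. CCAAT (33.8% of windows) was found in 7 of the 8 genes, Acod1 included, the GC box (32.7%) in 6 and the ETS core (6.91%) in none. Acod1 had 2 CG dinucleotides in the window, against 13 in Cs and 21 in Sdha and a median of 6 over all windows. A match describes letters only, and binding was not measured.

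Acod1 was one of the most abundant transcripts of these macrophages. The gene (ENSMUSG00000022126.6, chromosome 14, 103046977 to 103056573, plus strand) stood at 3793, 3317 and 2681 TPM (counts per transcript length, scaled to the same total in each library) in replicates 1, 2 and 3. Its mean of 3264 ± 558 TPM (SD, n = 3) was the 28th of 55145 nuclear genes other than ribosomal RNA genes. It took 0.585%, 0.532% and 0.416% of all expected counts, from 155608, 182825 and 201058 counts. Its levels fell within a range of 1.41-fold, with replicate 3 lowest. Acod1 has 1 annotated transcript, so no split between isoforms enters its level. None of the 31-base words of that transcript occurs in a transcript of another gene.

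The genes of the cycle enzymes were expressed at far lower and unequal levels. All 9 genes were detected, meaning at least 1 TPM in every library, as were 17.9% of all gene entries. Sdhb, the iron-sulphur subunit of succinate dehydrogenase (ENSMUSG00000009863.14, chromosome 4, 140961203 to 140979193, plus strand), had the highest level of the 8 at 93.3, 114 and 94.1 TPM in replicates 1, 2 and 3. Sdha, the flavoprotein subunit that oxidises succinate (ENSMUSG00000021577.14, chromosome 13, 74322254 to 74350280, minus strand), stood at 69.9, 106 and 86.8 TPM. Mdh2, the mitochondrial malate dehydrogenase (ENSMUSG00000019179.10, chromosome 5, 135778480 to 135790398, plus strand), stood at 70.7, 106 and 78.6 TPM. These 3 genes and the next one, Cs, formed an upper group within which no neighbours stood apart.

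Cs, the citrate synthase gene (ENSMUSG00000005683.8, chromosome 10, 128337734 to 128362479, plus strand), had 72.4, 97.1 and 78.5 TPM in replicates 1, 2 and 3. Ogdh, which encodes the decarboxylating subunit of the oxoglutarate dehydrogenase complex (ENSMUSG00000020456.17, chromosome 11, 6291633 to 6356642, plus strand), had 35.5, 46.7 and 38.9 TPM. Ogdh thus lay below every value of the upper group.

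The lowest levels belonged to isocitrate dehydrogenases and fumarase. Idh2, the mitochondrial isocitrate dehydrogenase that makes NADPH (ENSMUSG00000030541.16, chromosome 7, 80094846 to 80115392, minus strand), had 9.52, 22.1 and 11.9 TPM in replicates 1, 2 and 3. Idh3a, the catalytic subunit of the NAD-dependent enzyme of the cycle (ENSMUSG00000032279.11, chromosome 9, 54586334 to 54604661, plus strand), had 7.71, 15.3 and 7.22 TPM. Both had their high value in replicate 2. Fh1, the fumarase gene (ENSMUSG00000026526.14, chromosome 1, 175600374 to 175625635, minus strand), was lowest over all transcripts of a gene at 6.73, 7.34 and 5.49 TPM, from 188, 388 and 385 expected counts.

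**Figure D1:**
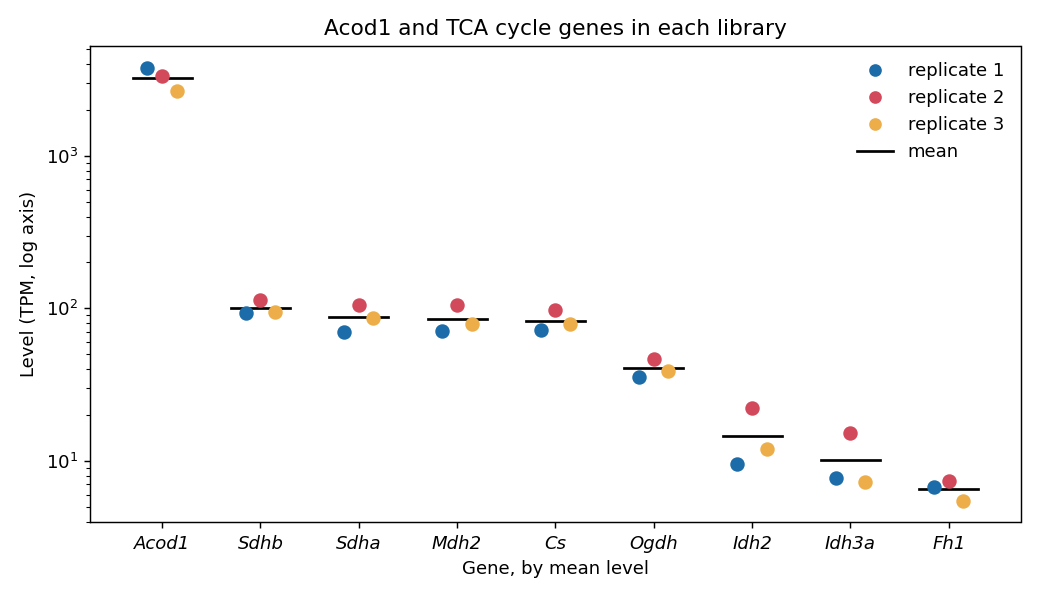
Level of each gene in TPM on a log axis, with 1 point per library and a black line at the mean of the 3 libraries. Acod1 lies between 2681 and 3793 TPM, and the 8 cycle genes lie between 5.49 and 114 TPM.

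Neighbours in the order of mean levels were called apart where the difference of log2(TPM + 0.1) within a library had the same sign in 3 of 3 libraries and its mean exceeded 2 SD. Of the 8 pairs of neighbours, 4 were apart. Acod1 exceeded Sdhb by 5.01 ± 0.29 log2 units (SD, n = 3), a 32.3-fold difference in TPM. Cs exceeded Ogdh by 1.03 ± 0.02, a difference of 2.04-fold that was nearly the same in each library. Ogdh exceeded Idh2 by 1.55 ± 0.43 and Idh2 exceeded Idh3a by 0.51 ± 0.21. The pairs Sdhb and Sdha (0.21 ± 0.18), Sdha and Mdh2 (0.04 ± 0.09), Mdh2 and Cs (0.03 ± 0.08) and Idh3a and Fh1 (0.55 ± 0.45) did not differ beyond their spread. The genes were chosen with earlier results known, so these differences are given without p-values.

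Against the median of the 8 cycle genes, 52.7, 71.9 and 58.7 TPM in replicates 1, 2 and 3, Acod1 was 72.0-fold, 46.1-fold and 45.7-fold higher. The difference was 5.82 ± 0.37 log2 units (SD, n = 3) and positive in 3 of 3 libraries. Acod1 alone exceeded the summed TPM of the 8 genes (366, 515 and 401) by 10.4-fold, 6.45-fold and 6.68-fold. Replicate 1, with the largest ratio, had both the highest Acod1 level and the lowest cycle sum. The Acod1 level exceeded that of Cs, whose product citrate is the source of cis-aconitate, by 5.30 ± 0.36 log2 units in 3 of 3 libraries (SD, n = 3).

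The genes whose levels were nearest to Acod1 over the 3 libraries, by Euclidean distance of log2(TPM + 0.1) among the 9930 genes with at least 1 TPM in each, were the complement gene C1qb (distance 0.171), the actin gene Actg1 (0.264) and the membrane protein gene Itm2b (0.291). Nearest to the mean profile of the 8 cycle genes were Smu1 (0.055), Gps1 (0.079) and Pmpca (0.091), of which Pmpca encodes a subunit of the protease that trims proteins imported into mitochondria. With 3 libraries, this measure reflects the level more than any pattern.

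The 3 libraries did not hold the cycle genes at the same level. All 8 cycle genes had their highest TPM in replicate 2, and Acod1 had its highest in replicate 1. Among all 9930 genes detected in each library, 46.3% were highest in replicate 2. The 8 cycle genes were also highest in replicate 2 as TMM-scaled counts (CPM), where 39.0% of genes were. In a second quantification of the same libraries, which the authors deposited for transcripts and which was summed per gene, Acod1 too was highest in replicate 2. Its levels there were 2737, 3144 and 2269 TPM in replicates 1, 2 and 3, so the library with the highest Acod1 level depended on the quantification. The share of all genes highest in replicate 2 was not computed for the second quantification. Over the libraries, the 8 cycle genes summed to 427 ± 77.7 TPM (SD, n = 3).

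Idh2 and Idh3a varied most. Their coefficients of variation were 46.2% and 45.1%, with highest over lowest values of 2.33-fold and 2.12-fold, against 11.6% to 21.8% for the other 7 genes. A spread over 1.5-fold was found for 4 of the 9 genes, Idh2, Idh3a, Sdha (1.52-fold) and Mdh2 (1.5-fold, just past the limit), and for 33.0% of all detected genes. The Sdha level in replicate 2 included 9.69 TPM on a short transcript with 2 expected counts, and Sdha ranged 1.3-fold as TMM-scaled counts. In the second quantification a spread over 1.5-fold was found for 8 of the 9, all but Acod1. The share over all genes was not computed there, so the 8 cannot be read as particular to the set. Without replicate 2 no gene of the set had such a spread, and without replicate 1 only Idh2 and Idh3a had it. With TMM-scaled counts the 2 isocitrate dehydrogenase genes remained, at 2.18-fold for Idh2 and 2.13-fold for Idh3a. For the subsets of libraries and the TMM-scaled counts, the share over all genes was not computed either. These counts thus cannot be read as particular to the set.

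Tested against counting error alone (edgeR fit with dispersion 0, deviance against a chi-square with 2 degrees of freedom, Benjamini-Hochberg adjusted over 12414 genes), all 9 genes varied between libraries, as did 70.9% of the genes tested. With so many genes passing, the count of the set is read as a description. The adjusted p-values in edgeR ran from 1.85e-37 for Idh3a to 3.67e-05 for Fh1, the gene with the fewest counts, and that of Acod1 was too small to be written. Without replicate 2, 6 of the 9 passed, against 42.1% of all genes, and Idh3a (edgeR adjusted p = 0.781), Sdhb (0.407) and Fh1 (0.441) did not. The test compares libraries, not conditions. The labels give 1 donor entry, and whether the spread is technical or biological was not tested.

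**Figure D2:**
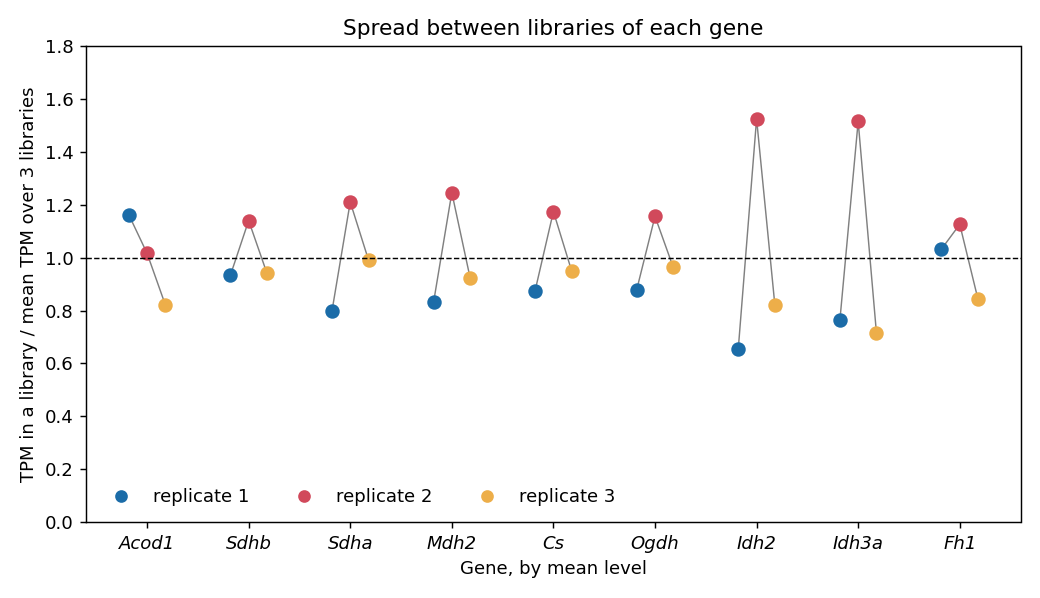
TPM of each gene in each library divided by its mean over the 3 libraries, with 1 point per library and a dashed line at the mean. The points of replicate 2 are the highest for the 8 cycle genes and those of Idh2 and Idh3a stand farthest from the mean, while Acod1 is highest in replicate 1.

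Replicate 2 also differed in markers of another cell type. All 8 macrophage markers were detected, with summed levels of 21181, 16539 and 17793 TPM in replicates 1, 2 and 3. Lyz2 alone made most of that sum, at 15717, 10767 and 12262 TPM. Of the 8 macrophage markers, 2 were highest in replicate 2, Adgre1 (943, 1187 and 893 TPM) and Mertk (120, 131 and 118 TPM). The 8 neutrophil markers summed to 22.9, 421 and 21.4 TPM, with 2 of 8 detected in every library. S100a9 and S100a8 made most of that sum, at 237 and 128 TPM in replicate 2, and the granule gene Ngp stood at 43.3 TPM there. Ltf stood at 0.32, 6.44 and 0.83 TPM and Camp at 0.35, 4.87 and 0.4 TPM in replicates 1, 2 and 3. The markers Ly6g, Elane and Mpo stood at 0.55, 0.37 and 0.56 TPM in replicate 2, from 2, 6 and 28 counts. They had no counts in the other libraries. Markers of mast cells, basophils and eosinophils summed to 0.1, 3.07 and 0.05 TPM in replicates 1, 2 and 3, mostly from Prg2 with 0, 27 and 0 counts. No marker on that list or on the T cell, B cell, NK cell, dendritic cell, fibroblast and erythroid lists reached 1 TPM in every library, and each of these other lists summed to less than 1 TPM in each library. Ribosomal RNA genes took 2.68%, 1.71% and 6.42% of the TPM in replicates 1, 2 and 3, and the library totals were 26589042, 34344922 and 48356527 expected counts. The part of these differences in the levels above was not tested. In bulk RNA, fewer cells of a type and less RNA per cell cannot be told apart.

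Idh3a stood below the other subunits of its enzyme. For the NAD-dependent isocitrate dehydrogenase, the catalytic subunit Idh3a averaged 10.1 ± 4.55 TPM, below the regulatory subunits Idh3b at 42.6 ± 8.24 and Idh3g at 26.9 ± 2.81 TPM (SD, n = 3 each). Idh3a minus Idh3b was -2.14 ± 0.33 and Idh3a minus Idh3g was -1.49 ± 0.53 on the log2 scale, lower in 3 of 3 libraries. Idh2 did not differ from its cytosolic counterpart Idh1 (21.3 ± 3.55 TPM) beyond the spread, with Idh2 lower in 2 of 3 libraries.

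For succinate dehydrogenase, the catalytic subunits Sdha and Sdhb averaged 87.6 ± 18.1 and 100 ± 11.6 TPM, and the membrane anchors Sdhc and Sdhd 64.5 ± 18.7 and 90.1 ± 10.8 TPM (SD, n = 3 each). Sdhb exceeded Sdhc by 0.67 ± 0.30 and Sdhd by 0.16 ± 0.04 log2 units in 3 of 3 libraries, so the 4 genes lay close together with Sdhc lowest. In the second quantification the difference between Sdhb and Sdhc was 0.36. Sdha exceeded Sdhc by 0.46 log2 units in the first quantification and by 0.14 in the second. For the oxoglutarate dehydrogenase complex, Ogdh at 40.4 ± 5.75 TPM, the succinyltransferase Dlst at 37.2 ± 7.98 and the shared flavoprotein Dld at 45.5 ± 3.85 TPM did not differ beyond their spread. At the end of the cycle, Mdh2 exceeded Fh1 by 3.67 ± 0.26 log2 units, or 12.8-fold, in 3 of 3 libraries, and Mdh2 lay 0.68 ± 0.09 log2 units above the cytosolic Mdh1, a difference of 0.39 in the second quantification.

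**Figure D3:**
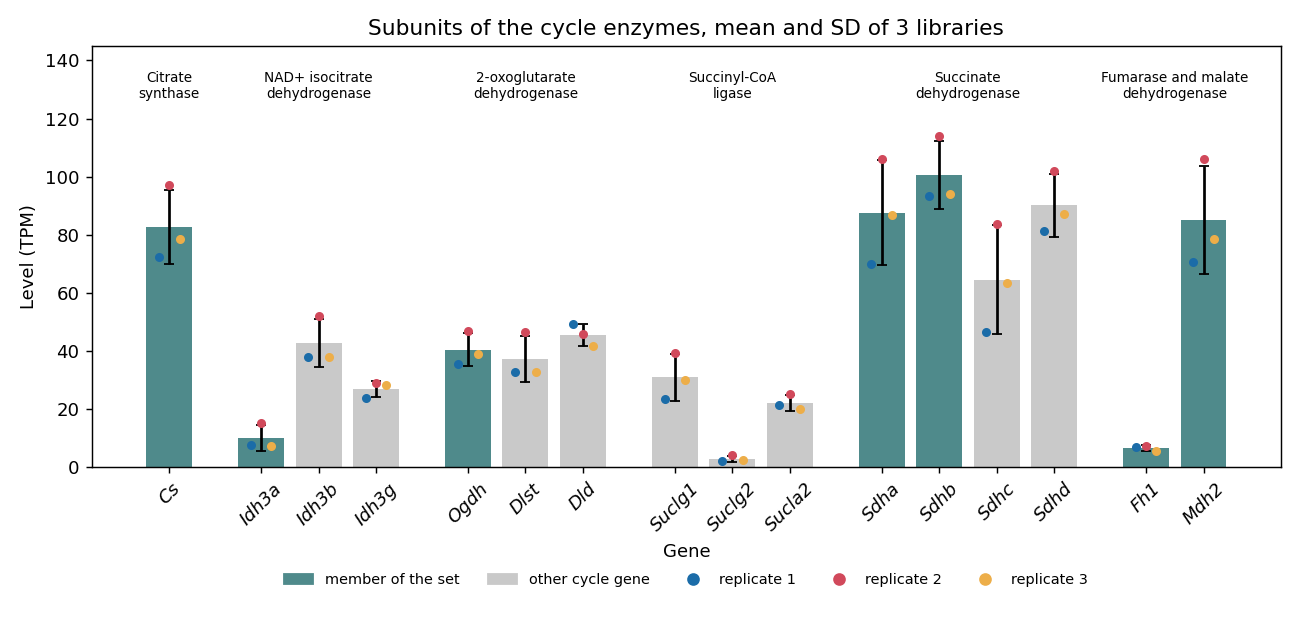
Mean level in TPM of the cycle genes grouped by enzyme, with bars from 0, error bars of 1 SD over 3 libraries and 1 point per library. Idh3a stands below Idh3b and Idh3g, the 3 genes of the oxoglutarate dehydrogenase complex stand at like levels, and Fh1 is far below Mdh2.

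The transcript tables show which annotated isoform carried each level, with the percent that each transcript holds of the TPM of its gene. In 8 of the 9 genes the leading transcript was protein-coding, and it held over 90% of the TPM on average in 5 of them, Acod1, Cs, Idh2, Sdha and Sdhb. The leading transcript held 99.9% in Cs and 99.2% in Idh2 on average. In Sdhb it held 94.4 ± 0.726% (SD, n = 3), with most of the rest on a noncoding transcript of 1065 bases.

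Some shares rested on very few counts. A noncoding transcript of 198 bases was given 9.13% of the Sdha TPM in replicate 2 from 2 expected counts and none in the other libraries. On coding transcripts alone, Sdha stood at 67.9, 94.5 and 85.1 TPM in replicates 1, 2 and 3, a narrower range than for the whole gene. A coding transcript of 542 bases was given 33.3% of the Fh1 TPM in replicate 1 from 11 counts, and 4.02% and 6.75% in replicates 2 and 3. The leading Fh1 transcript of 2636 bases held 62.5%, 94.6% and 91.9%.

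Ogdh was expressed as 2 kinds of transcript that differ in a coding exon. The leading transcript (ENSMUST00000003461.14) and a rare one with the same coding exons contain an exon of 103 bases. In its place, ENSMUST00000081894.4 and ENSMUST00000093350.9 have an exon of 91 bases, and ENSMUST00000093350.9 adds an exon of 45 bases. The exons, from the GENCODE M21 transcripts on mm10, are shown because they are the whole coding difference between the forms. Capitals mark the 61 bases that are identical between the first 2 exons in a global alignment.
Ogdh exon of 103 bases, chr11:6316978-6317080, plus strand: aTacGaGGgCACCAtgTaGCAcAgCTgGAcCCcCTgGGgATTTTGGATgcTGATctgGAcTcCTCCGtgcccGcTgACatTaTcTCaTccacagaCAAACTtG
Ogdh exon of 91 bases, chr11:6316765-6316855, plus strand: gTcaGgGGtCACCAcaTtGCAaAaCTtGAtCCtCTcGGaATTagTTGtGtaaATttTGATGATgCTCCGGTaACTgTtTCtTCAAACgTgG
Ogdh exon of 45 bases, chr11:6324878-6324922, plus strand: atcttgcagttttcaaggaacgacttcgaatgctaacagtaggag
The 2 exons differ by 12 bases in length, which keeps the reading frame, and 67.0% of the bases of the shorter one are identical in the longer. Transcripts with the exon of 103 bases held 85.2%, 86.0% and 84.8% of the Ogdh TPM in replicates 1, 2 and 3. Those with the exon of 91 bases held 14.0%, 13.5% and 13.4%. The split was stable to within 0.623 percentage points (SD, n = 3) for the longer form, and the second quantification gave 84.5 ± 0.966% and 14.4 ± 0.85% for the forms with 103 and with 91 bases. The model assigned 2030, 3641 and 4063 counts to the transcripts with the longer exon and 332, 567 and 639 to those with the shorter one. The exon of 45 bases was rare, since the transcript that contains it held 0%, 1.04% and 0.76% in replicates 1, 2 and 3, and 0%, 1.93% and 1.22% in the second quantification.

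Idh3a was the exception among the 9 genes, with less than 60% of its TPM on coding transcripts in every library. Coding transcripts held 25.5%, 52.7% and 49.0% of its TPM in replicates 1, 2 and 3, so that coding Idh3a amounted to 1.96, 8.08 and 3.54 TPM. Coding Fh1 stood at 6.45, 7.24 and 5.41 TPM. On coding transcripts Idh3a was thus below Fh1 in replicates 1 and 3 and on average (4.53 against 6.37 TPM), but above it in replicate 2. A retained-intron transcript of 1570 bases led on average with 42.3 ± 13.0%, and the coding ENSMUST00000217484.1 followed with 37.9 ± 11.8% (SD, n = 3 each). A transcript annotated for nonsense-mediated decay, the pathway that degrades messages with an early stop codon, held 17.1%, 16.6% and 9.58%. This transcript, ENSMUST00000215273.1, contains an extra exon of 95 bases (chromosome 9, 54592161 to 54592255) that is absent from ENSMUST00000217484.1. The first 24 bases of the exon are shown, with the stop codon that ends its reading frame in capitals.
Idh3a decay transcript, start of exon 3, chr9:54592161-54592184, plus strand: ggcatcgtttgcattactattTAA
The counts behind these shares were low, 79, 429 and 260 on coding and 138, 235 and 160 on noncoding transcripts. The second quantification gave the decay transcript 40.3%, 55.2% and 70.7% and the retained-intron transcript 42.9%, 14.0% and 0.0196% in replicates 1, 2 and 3, so which noncoding transcript led was not settled. The coding share was also lower in the second quantification, at 15.1%, 30.5% and 28.2% in replicates 1, 2 and 3, a mean of 24.6% against 42.4% in the first, so the coding TPM above depends on the quantification. In both, replicate 1 had the lowest coding share.

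Mdh2 also had a share on a decay transcript. The decay transcript held 26.4%, 25.3% and 19.3% of its TPM in replicates 1, 2 and 3, beside 73.2%, 73.7% and 79.9% on the leading coding transcript. In the second quantification the decay transcript held 25.1%, 6.2% and 2.61%, so this share differed between the quantifications in replicates 2 and 3. On coding transcripts alone, Mdh2 averaged 64.4 ± 13.4 TPM (SD, n = 3).

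**Figure D4:**
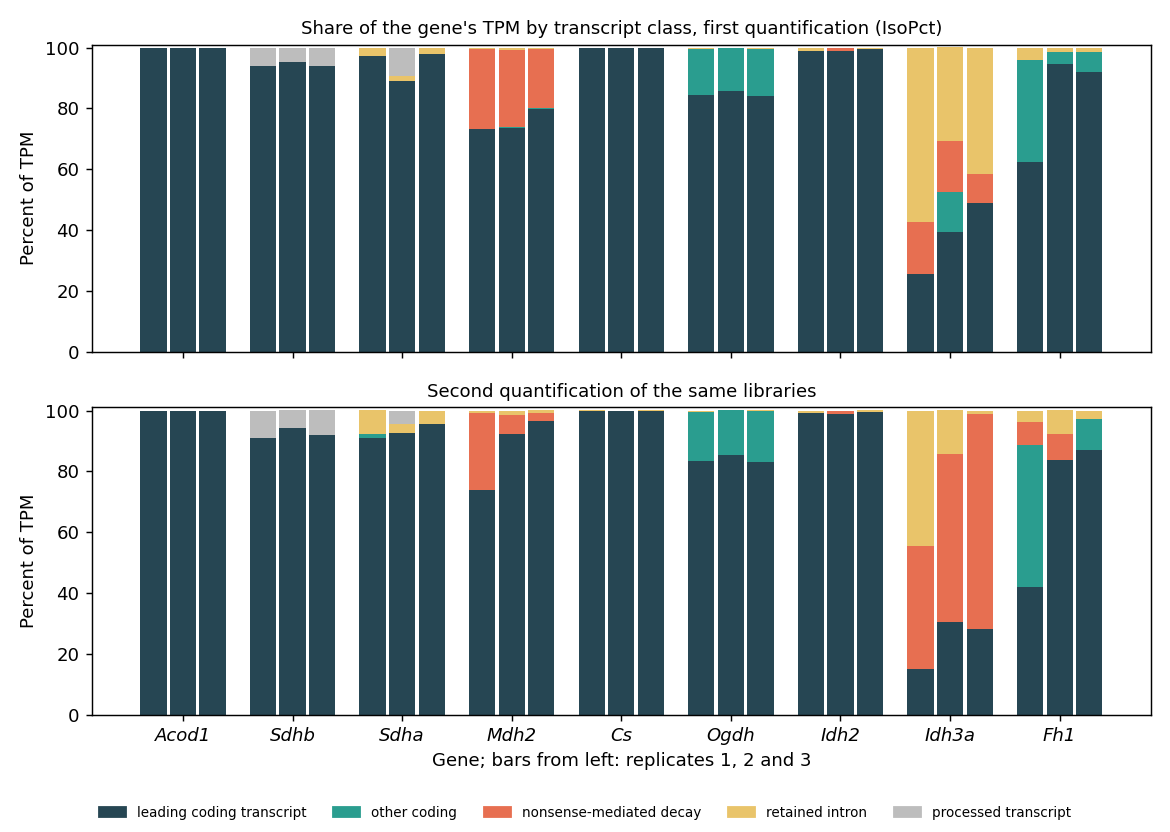
Percent of each gene's TPM by transcript class in replicates 1, 2 and 3 (bars from left to right within a gene), in the first quantification above and the second below. Most genes are held by a single coding transcript, Ogdh has a stable share on other coding transcripts, and in Idh3a the noncoding classes take 47.3% to 74.5% in the first quantification. In the second, the retained-intron and decay classes of Idh3a trade places in replicates 2 and 3.

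Of 42 genes in 8 lists around the cycle, 34 were detected in every library, the same cutoff that 17.9% of all entries met. All 10 other mitochondrial cycle genes were detected, with a median of 39.9 TPM, led by Sdhd at 90.1 TPM and Sdhc at 64.5 TPM. The lowest were Sucla2, the ADP-forming subunit of succinyl-CoA ligase, at 22 ± 2.66 TPM and Suclg2, its GDP-forming counterpart, at 2.83 ± 1.05 TPM (SD, n = 3). Suclg2 minus Sucla2 was -2.97 ± 0.34 on the log2 scale, lower in 3 of 3 libraries. The summed level of the 10 genes was 369, 501 and 400 TPM in replicates 1, 2 and 3, and 9 of them were highest in replicate 2, as were the 8 cycle members.

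Genes for entry of carbon into the cycle had unequal levels. All 4 pyruvate dehydrogenase genes were detected, with Pdhb at 39.4 ± 9.69, Pdha1 at 27.4 ± 4.45, Dlat at 12.6 ± 3.86 and the binding protein gene Pdhx at 6.55 ± 1.48 TPM (SD, n = 3). Glutamate dehydrogenase (Glud1) stood at 63.1 ± 11.2 TPM, and the transaminases Got2 and Got1 at 27.5 ± 4.6 and 25.3 ± 5.48 TPM.

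The carriers that move cycle intermediates across the inner mitochondrial membrane were all detected (5 of 5, median 60.1 TPM). The aspartate-glutamate carrier Slc25a12 stood at 86.9 ± 11.3 TPM, the citrate carrier Slc25a1 at 61.5 ± 7.47 TPM and the dicarboxylate carrier Slc25a10 at 60.1 ± 12.0 TPM (SD, n = 3). The oxoglutarate carrier Slc25a11 and Slc25a13, a paralog of Slc25a12, were lowest at 55.3 ± 6.06 and 3.07 ± 0.606 TPM. In the cytosol, Mdh1 and the citrate-cleaving enzyme Acly stood at 53.1 ± 11.8 and 53.1 ± 7.45 TPM, Idh1 at 21.3 ± 3.55 TPM and Aco1 at 9.9 ± 2.99 TPM, while the malic enzyme gene Me1 was below 1 TPM at 0.533 ± 0.189 TPM. Of the 4 succinate dehydrogenase assembly factors, Sdhaf2, which helps to attach the flavin to Sdha, was highest at 39.2 ± 3.6 TPM, followed by Sdhaf4 at 16.4 ± 4.05 and Sdhaf1 at 1.58 ± 0.06 TPM, and Sdhaf3 stood at 0.38 ± 0.0781 TPM.

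Genes that handle itaconate were far below Acod1, and 4 of 6 were detected. Rab32, a GTPase linked to delivery of itaconate to bacteria-containing vacuoles, stood at 84.2, 86.9 and 90.6 TPM in replicates 1, 2 and 3. Auh, a mitochondrial hydratase, stood at 11.1 ± 2.06 TPM and Slc13a3, a dicarboxylate importer, at 2.36 ± 1.05 TPM (SD, n = 3). Clybl, the lyase that splits citramalyl-CoA in the breakdown of itaconate, had 0.77, 2.25 and 1.75 TPM from 13, 50 and 53 counts. Oxgr1, a receptor reported to sense itaconate, had no counts, and 3 counts would have made 0.0498 TPM in the library where that floor is highest. Such a floor covers counting error only.

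None of the 4 genes on the list of paralogs of cycle enzymes was detected. Not 1 count fell on Csl or Mdh1b, where 3 counts would have made up to 0.102 TPM and 0.118 TPM. Ogdhl had at most 2 counts and Dhtkd1 at most 5 counts in a library. Csl shares 8.6% of the 31-base words of the leading Cs transcript, and the leading transcripts of the other 8 genes share at most 1.07% of theirs with other genes.

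**Figure D5:**
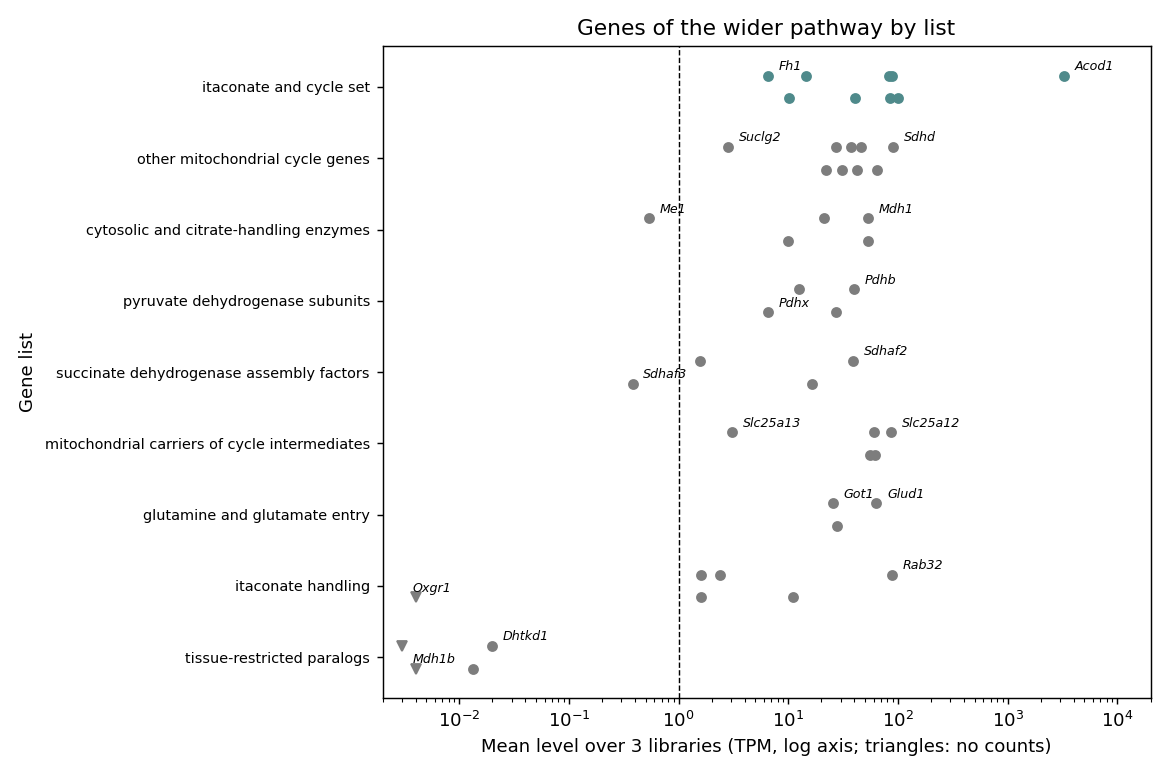
Mean level over 3 libraries in TPM on a log axis for the 9 genes and for the genes reported from the 8 lists around them, with the highest and the lowest gene of each list named, triangles for genes without counts and a dashed line at 1 TPM. Acod1, at a mean of 3264 TPM, stands far above the other genes plotted, and most genes of the cycle, its entry routes and its carriers lie between 1 and 100 TPM.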

How the data were processed

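Polyadenylated RNA of 3 stimulated macrophage libraries was analysed, 1 table of each kind per library. Both quantifications used mm10 and GENCODE annotation M21, as a readme beside each sample's tables states. Which programs made them is not given in the sources used here. Expected counts were deposited as fractional numbers with no scaling, per the file headers and values, and the second quantification, whose inputs name no alignment, holds estimated counts deposited in the same way. The TPM that the authors deposited are scaled to 1 total in every library. The deposited percent values give a transcript's part of the TPM of its gene.

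Entries without a gene identifier (numbered entries and spike-in sequences) were left out. Mitochondrial genome transcripts and ribosomal RNA genes, 65124 to 109644 TPM per library, stayed in the levels. They were left out only for the rank of Acod1 and for an alternative in which TPM were rescaled without them. Counts were rounded for the edgeR fit, which used TMM scaling, a minimum mean count of 10 per gene and a threshold of 0.05, and was tested on simulated data. Library totals of 26589042 to 48356527 expected counts limit the precision of low transcripts. The members and lists were chosen with earlier results of these data known. All 9 members are named, with up to 3 highest and 2 lowest genes of each list, except for list genes that are not reported here. The gene pairs of subunits and the motifs were chosen with values and sequences in view. Alternatives covered the second quantification, scaling, pseudocounts, filters and leaving out each library. Software was R 4.3.3, edgeR 4.0.16, DESeq2 1.42.0 (size factors only) and Python 3.11.15.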

Additional observations from a re-analysis of the deposited data

How the results depend on the processing

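No paired analysis was possible because the series holds 1 group. Of the comparisons with alternative settings, 158 were counted as the same, 14 moved and 3 lost their call. Being counted as the same did not mean an equal value. The genes varying between libraries without replicate 2 and the genes detected at 10 TPM both fell from 9 to 6. Pairs of neighbours apart rose from 4 to 5 without replicate 1. In the second quantification the mean level was 67.3 TPM for Cs, 34.2 TPM for Ogdh and 83.4 TPM for Sdhb, outside 1 SD of the first, and the transcript that led in the first held 99.8% for Cs, 19.0% for Idh3a, 92.4% for Sdhb and 87.7% for Mdh2. In Idh3a the decay transcript led there with 55.4%. The log2 difference between Acod1 and the cycle genes was 6.54 with the mean over genes in place of the median and 6.32 against all 18 mitochondrial cycle genes. A spread over 1.5-fold was found for 4 genes, and for 8 in the second quantification and 2 with TMM-scaled counts. A limit of 2-fold left 2 genes, and leaving out 1 library gave 0 to 4. For these alternatives the share over all genes was not computed. At a minimum of 10 TPM in every library, 6 of the 9 genes were detected, and the share of all gene entries at that minimum was not computed. Shares of transcripts with few counts, in Idh3a and Fh1, are limited by depth. The cause of these differences was not tested.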
